A study of Mus musculus with 10 samples.

Results

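The cone phototransduction genes are 10 genes that encode the light-response cascade of cone photoreceptors. They were taken by symbol from a mouse retina count table, and all 10 were found among its 35275 genes. They are the opsins Opn1sw and Opn1mw, the cone arrestin Arr3, the transducin subunits Gnat2, Gnb3 and Gngt2, the phosphodiesterase subunits Pde6c and Pde6h, and the channel subunits Cnga3 and Cngb3. All 10 passed the filter on low counts that left 17435 genes for testing. The libraries were made from retinas of C57BL/6 mice at 10 to 12 weeks of age. In 5 of them the mice had received vigabatrin at 140 mg/kg/day from a subcutaneous osmotic pump over 11 days. The other 5 are controls, labelled vehicle by treatment but untreated by title. No allele or other agent is given for either group, and the labels do not say whether a library came from 1 retina, from several or from a separate animal. The p-values therefore measure the spread between these libraries, which are named here by group and title number.

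Vigabatrin is given against epilepsy and blocks GABA transaminase, the enzyme that degrades GABA, and its known adverse effect on the eye is a narrowed visual field. In a cone, light activates an opsin, which activates the G protein transducin. Transducin relieves the inhibition of a phosphodiesterase, cyclic GMP falls, and cyclic nucleotide-gated channels close. Arrestin then binds the phosphorylated opsin and ends the signal. Rods run the same cascade with a separate set of genes for most steps, and they far outnumber cones in the mouse retina.

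Total counts ranged from 36056135 to 54052502 per library. Markers of rods, bipolar cells, Müller glia, amacrine cells and ganglion cells were detected in every library, the lowest being Sox9 of Müller glia at 19.6 CPM (reads of the gene per 1000000 counts of the library, whose total was scaled by the trimmed mean of M-values, TMM). Lens markers took over 1% of counts in 4 libraries, vehicle 835 and 1582 and vigabatrin 2344 and 2429. Their sum ranged from 29.6 to 17397 CPM in vehicle and from 2.17 to 17751 CPM after vigabatrin. Of the 9 lens markers 7 had counts in every library, while Lim2 was at 0 in 5 libraries and Crygd in 1. The sum of 7 pigment epithelium markers, all detected in every library, ranged from 26.1 to 1587 CPM in vehicle and from 11.8 to 704 CPM after vigabatrin. All 7 were lower after vigabatrin, with a median log2 fold change of -2.35 (median standard error 1.13). In edgeR's quasi-likelihood test 4 had an unadjusted p under 0.05, against 7.36% of all genes tested. The 4 cornea markers tested were also lower, 3 of them under that p. The 8 lens markers tested were higher, with a median of 0.29, and 0 were under it. Among the retinal cell types, the 5 rod markers were all lower (median -0.078), 2 of them under that p. Of 6 Müller glia markers 4 were higher and 2 lower (median 0.080), and 4 were under it. The same held for 1 of 5 amacrine markers, 0 of 6 bipolar markers and 0 of 6 ganglion cell markers. Of all these markers 0 passed an adjusted p under 0.05.

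None of the cone transcripts differed between vigabatrin and vehicle retinas beyond the spread between libraries. Of the 10 genes, 5 had higher and 5 lower means after vigabatrin, with log2 fold changes from -0.082 (Opn1mw) to 0.070 (Arr3) and a median of -0.006, against -0.001 over all genes tested. In edgeR's quasi-likelihood test 0 of the 10 passed a Benjamini-Hochberg adjusted p under 0.05 over all genes, with adjusted p from 0.894 to 0.992. At an unadjusted p under 0.05 the count was also 0, and DESeq2 and limma-voom called 0 of them as well. Over all genes tested, 0.00574% were called by edgeR, 0.488% by DESeq2, and 7.36% had an unadjusted p under 0.05. The vehicle and vigabatrin libraries overlapped for all 10 genes, whereas 1.48% of the tested genes showed no overlap. The 95% intervals of the fitted fold changes of the 10 genes lay between 0.819 (lower bound of Opn1mw) and 1.28 (upper bound of Arr3). A test that misses the threshold does not show equal levels. For each gene taken alone, the intervals give the sizes of change left possible by a fit with treatment as the sole term. A fit with a term for title number range, given below, had larger standard errors for all 10 genes. In bulk tissue, fewer cones and less RNA per cone cannot be told apart.

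**Figure D1:**
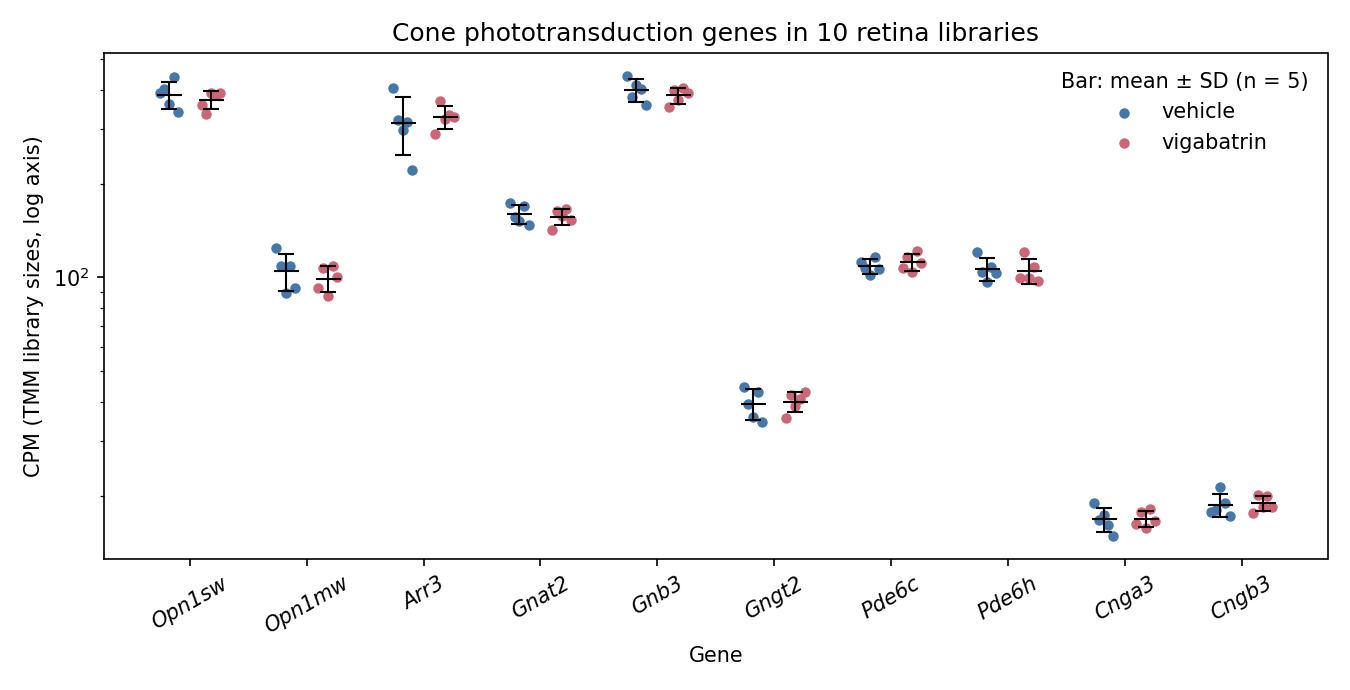
CPM of the 10 cone genes (log axis) in each of the 10 libraries, vehicle in blue and vigabatrin in red, with bars for mean ± SD (n = 5 each). The groups overlap for all 10 genes, and the vehicle points of Arr3 spread from 221 to 405 CPM.

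The opsins are the light-sensing proteins, and the mouse has a short-wave pigment (S opsin, Opn1sw) and a middle-wave pigment (M opsin, Opn1mw). Opn1sw (ENSMUSG00000058831) lies on the minus strand of chromosome 6 from 29376671 to 29388468 in mm10, and its principal transcript has 5 exons. Opn1mw (ENSMUSG00000031394) lies on the plus strand of chromosome X from 74127464 to 74150760, with 6 exons. The 250 bases before their annotated RefSeq starts (GRCm38.p6) are printed 5′ to 3′ together with those of Arr3, which varied most among the 10 genes. The Opn1sw stretch lies inside the locus given above, which on the minus strand starts at 29388468, and not before it. Capitals mark TAATC or its reverse complement GATTA, the first 5 letters of the TAATCC core bound by the photoreceptor factors CRX and OTX2.
Opn1sw, chr6:29380514-29380763, minus strand: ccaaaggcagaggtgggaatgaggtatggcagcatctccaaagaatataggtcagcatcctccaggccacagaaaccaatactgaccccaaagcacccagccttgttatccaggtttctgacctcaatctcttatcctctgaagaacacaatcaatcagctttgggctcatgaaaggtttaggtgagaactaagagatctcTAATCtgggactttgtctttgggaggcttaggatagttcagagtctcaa
Opn1mw, chrX:74127216-74127465, plus strand: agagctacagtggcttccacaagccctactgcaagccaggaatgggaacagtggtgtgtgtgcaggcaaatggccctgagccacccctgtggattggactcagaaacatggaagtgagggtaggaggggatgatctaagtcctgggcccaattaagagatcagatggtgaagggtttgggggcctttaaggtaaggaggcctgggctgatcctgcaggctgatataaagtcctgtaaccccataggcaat
Arr3, chrX:100605247-100605496, plus strand: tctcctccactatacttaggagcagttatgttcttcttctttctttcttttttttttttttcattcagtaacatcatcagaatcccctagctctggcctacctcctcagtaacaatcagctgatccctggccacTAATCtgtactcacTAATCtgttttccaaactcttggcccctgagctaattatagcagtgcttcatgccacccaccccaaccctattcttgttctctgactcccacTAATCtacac

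TAATC or GATTA occurred 1 time in the Opn1sw stretch, 3 times in that of Arr3 and 0 times in that of Opn1mw. Among the genes whose stretches are not printed, it occurred 1 time for Gnat2 and 0 times for Pde6h and Cnga3. Of all RefSeq promoter stretches of these 250 bases, 19.8% held the 5 letters on either strand. The longer TAATCC or GGATTA was searched in the whole 300-base windows, from 250 bases before to 50 after the start, which existed for 6 of the 10 genes. It was found in 1 of the 6, Gnat2, as GGATTA, and 7.06% of all 32851 windows held it. The Gnat2 match begins 19 bases before the RefSeq start, and all 250 bases before that start lie within exons annotated by GENCODE M21. A match of so few letters is a description of the sequence and shows no binding.

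Opn1sw measured 389, 401, 359, 439 and 338 CPM in vehicle 1580, 1582, 2345, 832 and 835. After vigabatrin it measured 357, 335, 390, 383 and 391 CPM in 2344, 2347, 2349, 2428 and 2429. The highest library was vehicle 832 and the lowest vigabatrin 2347, and the groups overlapped over most of their range. Means were 385 ± 39.1 and 371 ± 24.5 CPM (SD, n = 5 each), and the log2 fold change was -0.053 (standard error 0.072, edgeR adjusted p = 0.917). The 95% interval of the fold change ran from 0.864 to 1.08.

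Opn1mw was less abundant, at 124, 109, 89.0, 109 and 92.7 CPM in the vehicle libraries and 92.3, 107, 86.9, 109 and 100.3 CPM in the vigabatrin libraries, in the same order. Vehicle 1580 stood highest, and the other vehicle libraries fell within or near the vigabatrin range. Means were 105 ± 14.3 and 99.1 ± 9.40 CPM, with a log2 fold change of -0.082 (standard error 0.094, edgeR adjusted p = 0.898). This gene had the lowest interval bound of the 10, at a fold change of 0.819.

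The ratio of the opsins was examined because S opsin in the mouse is enriched in ventral cones and M opsin in dorsal cones. The CPM of Opn1sw was 3.12 to 4.48 times that of Opn1mw in the 10 libraries. On the log2 scale the ratio was 1.65, 1.88, 2.01, 2.01 and 1.87 in vehicle 1580, 1582, 2345, 832 and 835. It was 1.95, 1.64, 2.17, 1.82 and 1.96 in vigabatrin 2344, 2347, 2349, 2428 and 2429. Each group held 1 library near 1.64, and the groups overlapped almost completely. Group means were 1.88 ± 0.15 and 1.91 ± 0.19 (SD, n = 5 each), a difference of 0.026 (exact two-sided permutation test, p = 0.802, where the smallest possible p is 0.00794). The difference was -0.033 without vehicle 1580 and -0.038 without vigabatrin 2349. With vehicle 2345 as the sole vehicle library, the one whose title number falls in the range of the vigabatrin libraries, it was -0.103, a value with no test. Which part of the retina each library covered is not given in the sources used here, and its part in this spread was not tested.

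**Figure D2:**
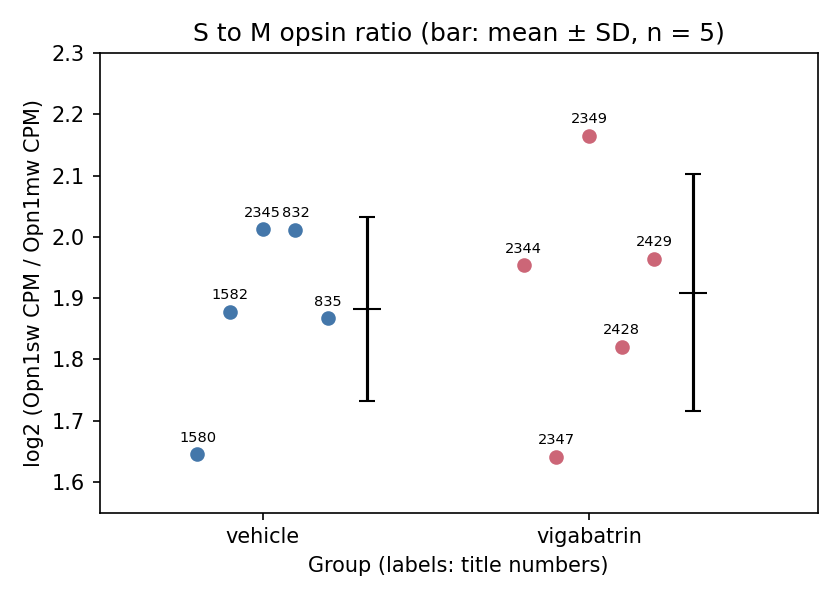
The log2 ratio of Opn1sw to Opn1mw CPM in each library, labelled by title number, with bars for mean ± SD (n = 5 each). The group means of 1.88 and 1.91 differ by far less than the spread within either group.

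Arr3 (ENSMUSG00000060890), on the plus strand of chromosome X from 100605497 to 100618493, encodes cone arrestin, which ends the cone light response. It measured 405, 319, 298, 316 and 221 CPM in vehicle 1580, 1582, 2345, 832 and 835. After vigabatrin it measured 289, 367, 321, 332 and 327 CPM in 2344, 2347, 2349, 2428 and 2429. Vehicle libraries held both the highest and the lowest value, which differed 1.84-fold, while the vigabatrin libraries differed at most 1.27-fold. Means were 312 ± 65.7 and 327 ± 27.9 CPM, with a log2 fold change of 0.070 (standard error 0.129, edgeR adjusted p = 0.939). The coefficient of variation was 21.1% in vehicle and 8.52% after vigabatrin, and the difference in spread was not tested. The pooled SD within groups, 0.24 on the log2 scale, was above that of 92.9% of tested genes with a mean of at least 10 CPM. Vehicle 835 set the sign of the fold change: without it the value was -0.032, and without vehicle 1580 it was 0.181.

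The cone transducin is built from Gnat2, the alpha subunit that binds GTP, with Gnb3 (beta) and Gngt2 (gamma). Gnat2 (chromosome 3, 108092789 to 108101432, plus strand) measured 174, 156, 152, 169 and 148 CPM in vehicle 1580, 1582, 2345, 832 and 835. After vigabatrin it measured 142, 163, 157, 166 and 152 CPM in 2344, 2347, 2349, 2428 and 2429. The groups shared nearly the same range, with a log2 fold change of -0.031 (standard error 0.056, edgeR adjusted p = 0.937) and an interval of 0.898 to 1.07 for the fold change. Gnb3 (chromosome 6, 124834240 to 124840275, minus strand) averaged 399 ± 32.7 CPM over vehicle and 383 ± 22.6 CPM over vigabatrin libraries. Gnb3 is also known to be expressed in ON bipolar cells, and these libraries do not separate the cell types. Its log2 fold change of -0.057 (standard error 0.062) had the smallest adjusted p of the 10 genes, 0.894 by edgeR. Gngt2 (chromosome 11, 95837216 to 95845734, plus strand) had 39.4 ± 4.42 and 40.0 ± 2.93 CPM, with a log2 fold change of 0.022 (standard error 0.079). Among the 3 subunits, vehicle 1580 was the highest library each time, and the lowest was vigabatrin 2344 for Gnat2 and Gnb3 and vehicle 835 for Gngt2.

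The cone phosphodiesterase lowers cyclic GMP, with Pde6c as the catalytic subunit and Pde6h as the inhibitory one. Pde6c (chromosome 19, 38132781 to 38183947, plus strand) measured 112, 107, 102, 116 and 106 CPM in vehicle 1580, 1582, 2345, 832 and 835. After vigabatrin it measured 107, 116, 104, 122 and 111 CPM in 2344, 2347, 2349, 2428 and 2429. This was the least variable of the 10 genes, with a pooled SD of 0.083 log2 units and all libraries within 1.20-fold. Its log2 fold change was 0.044 (standard error 0.051, edgeR adjusted p = 0.898), with an interval of 0.954 to 1.11 for the fold change. Pde6h (chromosome 6, 136954523 to 136968865, plus strand) averaged 106 ± 9.12 CPM over vehicle and 105 ± 9.63 CPM over vigabatrin libraries, and a log2 fold change of -0.019 (standard error 0.072). Its highest values were 121 CPM in vehicle 1580 and 121 CPM in vigabatrin 2347, 1 library of each group.

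The cone channel carries the current that light switches off, and it combines Cnga3, the ion-conducting alpha subunit, with the modulatory beta subunit Cngb3. They were the least abundant of the 10 genes, with 627 to 899 counts per library for Cnga3 and 770 to 992 for Cngb3. Cnga3 (chromosome 1, 37219261 to 37263383, plus strand) measured 18.9, 16.7, 17.3, 16.1 and 14.9 CPM in vehicle 1580, 1582, 2345, 832 and 835. After vigabatrin it measured 16.3, 17.7, 15.7, 18.1 and 16.6 CPM in 2344, 2347, 2349, 2428 and 2429. The vigabatrin range lay wholly inside the vehicle range, and the log2 fold change was 0.008 (standard error 0.072, edgeR adjusted p = 0.992). Cngb3 (chromosome 4, 19280850 to 19510623, plus strand) had 18.6 ± 1.60 and 18.9 ± 1.07 CPM, with a log2 fold change of 0.020 (standard error 0.068). Its highest library was vehicle 2345 at 21.3 CPM, in which 7 of the 10 genes were below their means.

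Levels were compared between genes as CPM per kilobase of deposited gene length. On this scale Gnb3 was highest at a mean of 212 over the 10 libraries, followed by Arr3 at 189, Opn1sw at 157, Opn1mw at 82.7, Gnat2 at 62.7, Pde6c at 37.3, Gngt2 at 25.0, Pde6h at 17.8, Cnga3 at 4.81 and Cngb3 at 3.98. The ranges of Gnb3 and Arr3 overlapped, as did those of Arr3 and Opn1sw and those of Cnga3 and Cngb3. Each of the other neighbours in this order was separated in all 10 libraries without overlap. Within libraries, Cnga3 was 1.10 to 1.43 times Cngb3 in all 10. The order depends on the lengths: with the longest principal transcript of GENCODE M21 in place of the deposited length, Arr3 measured 235, above Gnb3 at 212. Pde6h has a deposited length of 5940 bases, the longest of the 10, which lowers its per-length value. Exons of Opn1sw, Gngt2 and Pde6h overlap those of Calu, Abi3 and Arhgdib on the opposite strand by 397, 234 and 136 bases. Whether the counting used strand is not given in the sources used here, and without it the reads of these stretches cannot be assigned with certainty.

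Most of the 10 genes were high or low in the same libraries, and these libraries belonged to both groups. Their mean log2 CPM averaged 6.66 ± 0.12 over the vehicle libraries and 6.65 ± 0.08 over the vigabatrin libraries (SD, n = 5 each). All 10 were below their 10-library means in vehicle 835 and in vigabatrin 2344. In vigabatrin 2428 all 10 were above, and in vehicle 1580, vehicle 832 and vigabatrin 2347 9 of 10 were. Vehicle 1580 held the highest value of 7 genes and vehicle 835 the lowest of 4. The exceptions were Cngb3 in vehicle 1580, Cnga3 in vehicle 832 and Opn1sw in vigabatrin 2347, where it reached its lowest value. The summed CPM of the 10 genes ranged from 1432 in vehicle 835 to 1849 in vehicle 1580, while all vigabatrin libraries lay between 1508 and 1703.

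Other tissue varied between the same libraries. Vehicle 835 and vigabatrin 2344 had the most lens transcripts, 17397 and 17751 CPM, and the most pigment epithelium transcripts, 1587 and 704 CPM. The other lens-rich libraries, vehicle 1582 and vigabatrin 2429, had 7 and 5 of the 10 genes below their means. Mean log2 CPM of 9 rod counterparts of the cone genes was lowest in vigabatrin 2429 (10.97) and 2344 (10.97) and vehicle 835 (11.00) and highest in vehicle 832 (11.19) and 1580 (11.16). The fourth lens-rich library, vehicle 1582, had 11.08, and vigabatrin 2428, where all 10 cone genes were above their means, had 11.05. The part of carried-over tissue in the spread of the cone genes was not tested. Without the 4 lens-rich libraries the median log2 fold change of the 10 genes was -0.022, with 6 lower and 0 called by edgeR, where 0 genes were called over all genes too.

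**Figure D3:**
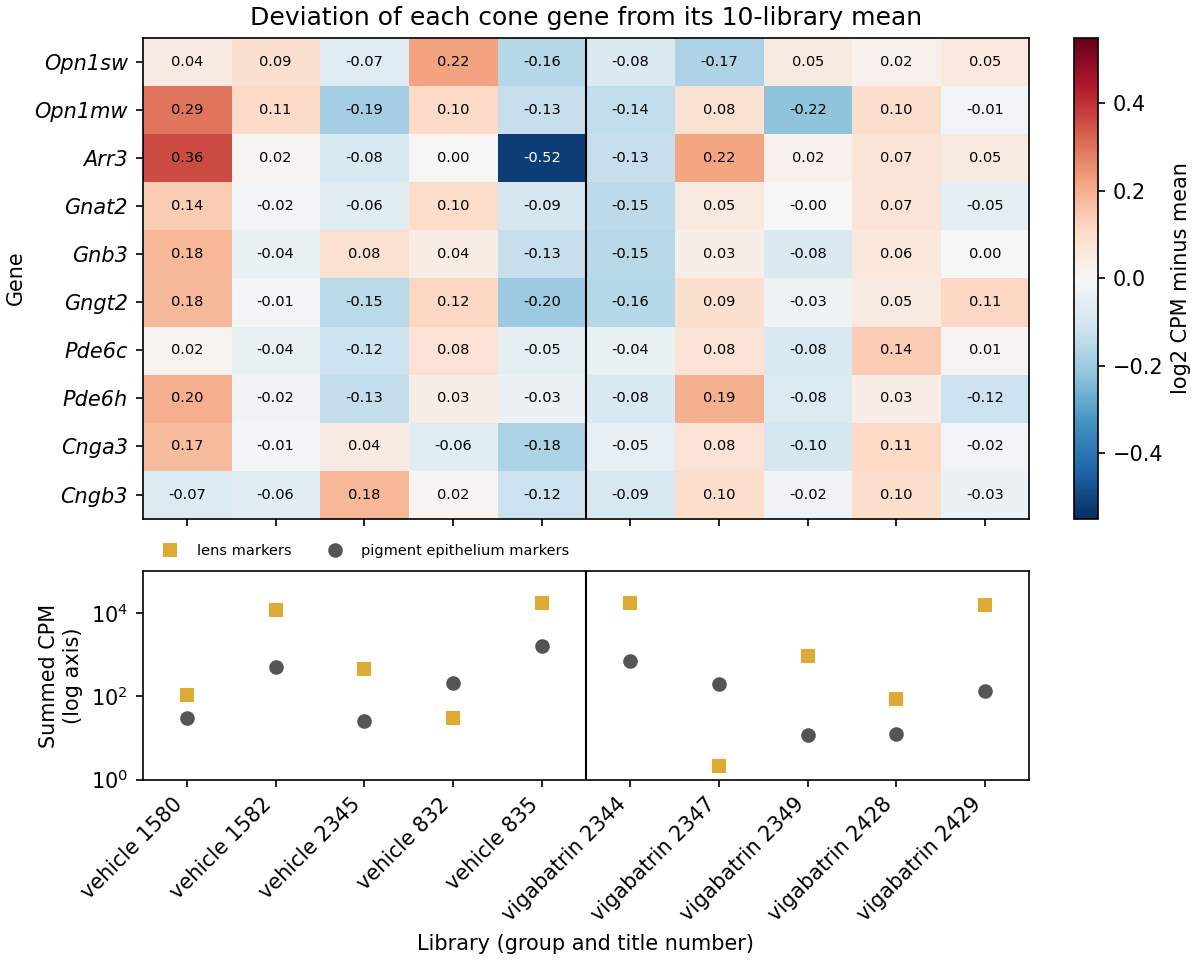
Upper panel: log2 CPM of each cone gene minus its 10-library mean (colour and printed value), by library. Lower panel: summed CPM of lens and pigment epithelium markers (log axis) in the same libraries. Vehicle 835 and vigabatrin 2344, with the highest sums, are below the mean for all 10 genes, and Arr3 in vehicle 835 is lowest of all, at -0.52.

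Title numbers divide the libraries in the same way as the treatment, except that vehicle 2345 is numbered like the vigabatrin libraries. With a term for title numbers under 2000 the comparison rests on vehicle 2345 alone, so this range and the treatment cannot be told apart beyond that library. In that fit the median log2 fold change of the 10 genes was 0.086, with 7 higher, 3 lower and 0 called by edgeR. The highest values were 0.166 for Gngt2, 0.155 for Opn1mw, 0.140 for Pde6c, 0.135 for Arr3 and 0.124 for Pde6h, with standard errors from 0.085 (Pde6c) to 0.237 (Arr3). The 3 lower genes were Cngb3 at -0.171 (standard error 0.095), Gnb3 at -0.109 (0.109) and Cnga3 at -0.037 (0.129). Vehicle 2345 held the lowest Pde6c and Pde6h of the 10 libraries and the highest Cngb3.

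Rod genes of the same role were the nearest comparison. Per kilobase of deposited length, each of the 8 cone genes compared was below its rod counterpart in all 10 libraries. Gnat2 was at 1.29% of Gnat1, the rod transducin alpha subunit. Cnga3 was at 1.79% of Cnga1 and Cngb3 at 1.80% of Cngb1, the rod channel subunits. Without division by length these shares were 2.28% and 1.37%. Higher shares were found for Pde6c, at 5.81% of Pde6a and 7.15% of Pde6b, the rod catalytic subunits, and for Gnb3, at 11.9% of Gnb1, a beta subunit that many cell types express. Arr3 was at 23.9% of Sag, the rod arrestin, Gngt2 at 14.5% of Gngt1 and Pde6h at 2.86% of Pde6g. The shares depend on the lengths used. With principal transcript lengths, an alternative chosen after seeing the data, Arr3, Gngt2 and Pde6h were at 10.8%, 5.75% and 1.14%. Gnat2 was then at 1.66%, and Pde6c at 6.90% of Pde6a and 5.61% of Pde6b, the reverse order. The shares of Gnb3 (11.9%), Cnga3 (1.76%) and Cngb3 (1.80%) moved by less than the spread between libraries. Without division by length, Gnb3 was at 6.98% of Gnb1, Arr3 at 8.57% of Sag, Gngt2 at 7.72% of Gngt1 and Pde6h at 7.54% of Pde6g. On that scale Gnat2 was at 1.47% of Gnat1, and Pde6c at 3.89% of Pde6a and 5.18% of Pde6b.

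The cone to rod ratios of the 2 groups overlapped for all 9 pairs. The largest difference was in Arr3/Sag, with a log2 ratio of -2.21 ± 0.32 for vehicle against -1.91 ± 0.08 for vigabatrin (SD, n = 5 each). The vehicle libraries reached from -2.69 (835) to -1.79 (1580), and all 5 vigabatrin libraries fell inside that range, between -2.02 and -1.83. The overlap rested on vehicle 1580 alone, which was above all vigabatrin libraries. Vehicle 1582 (-2.15), 2345 (-2.16), 832 (-2.27) and 835 were below all of them. For Pde6c the log2 ratio to Pde6a was -4.17 ± 0.053 in vehicle and -4.04 ± 0.081 after vigabatrin, and that to Pde6b -3.87 ± 0.044 and -3.74 ± 0.074. In both Pde6c ratios only vigabatrin 2349 (-4.16 and -3.86) lay inside the vehicle range, and the other vigabatrin libraries were above it. Gnat2/Gnat1 differed by 0.015 between the groups. Gnb3/Gnb1 was the 1 pair with the lower mean after vigabatrin, -3.12 ± 0.14 against -3.02 ± 0.14 in vehicle, and the other 8 had higher means. These ratios were not tested.

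**Figure D4:**
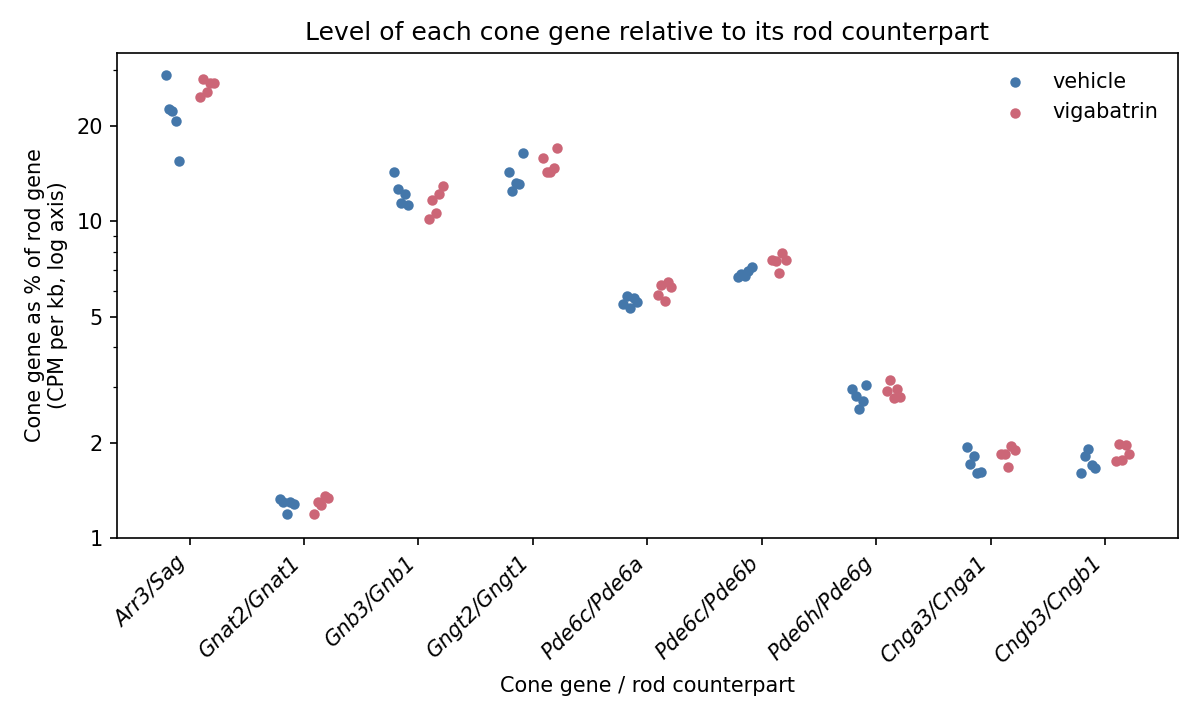
Each of 8 cone genes as a percentage of its rod counterpart, in CPM per kilobase of deposited length (log axis), with 1 point per library in blue (vehicle) or red (vigabatrin). Shares run from 1.19% for Gnat2/Gnat1 in vehicle 2345 to 28.9% for Arr3/Sag in vehicle 1580, and the groups overlap for all 9 pairs.

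Of the 9 rod counterparts, 1 had a higher and 8 had a lower mean after vigabatrin, with a median log2 fold change of -0.076. Over all genes tested 50.6% were lower. By edgeR 0 passed the test over all genes, and 1, Sag, had an unadjusted p under 0.05, against 7.36% of all genes tested. Sag averaged 3969 ± 190 CPM over vehicle and 3433 ± 150 CPM over vigabatrin libraries, with a log2 fold change of -0.21 (standard error 0.043, edgeR adjusted p = 0.311). For Sag the CPM of the groups did not overlap, as for 1.48% of all genes tested. The next smallest p-values belonged to Pde6a (-0.078), Cnga1 (-0.075) and Cngb1 (-0.076), with standard errors of 0.036 to 0.040, and for each of these the groups overlapped. The difference between the rod and the cone genes was not tested.

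**Figure D5:**
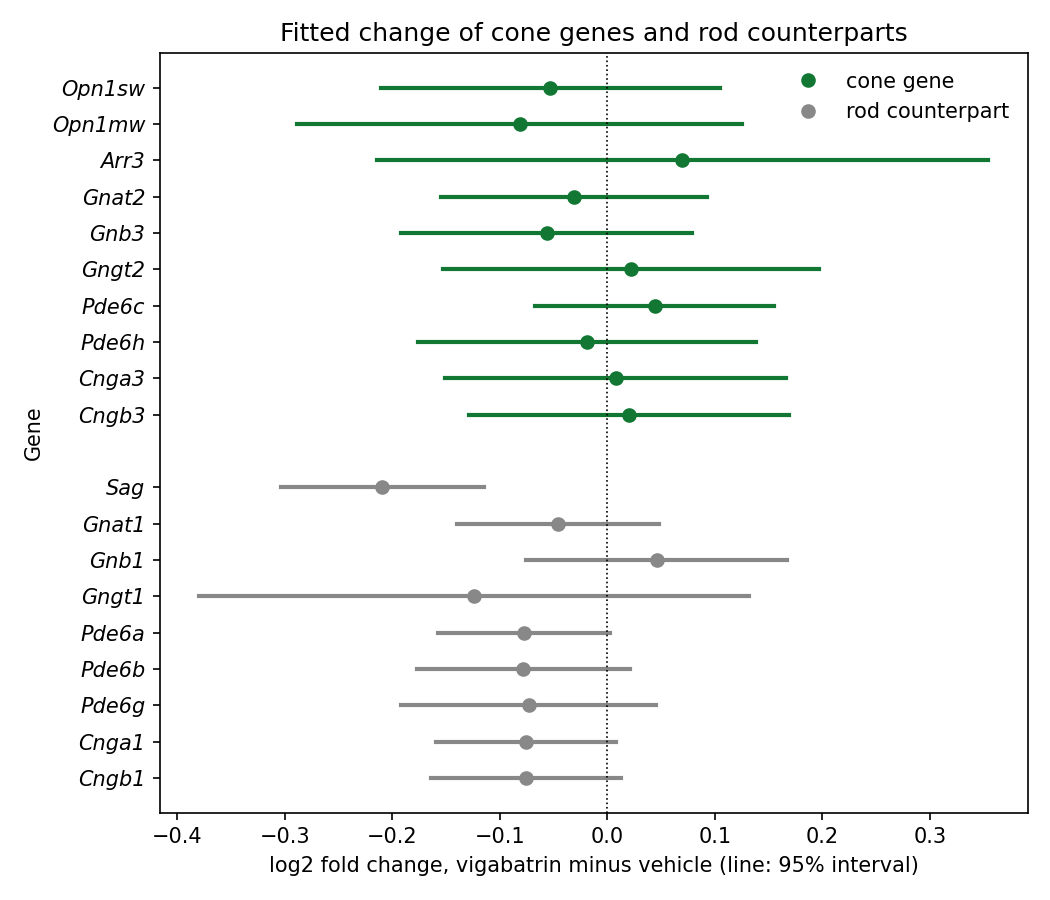
Fitted log2 fold change, vigabatrin minus vehicle, with its 95% interval, for the 10 cone genes (green) and 9 rod counterparts (grey). The intervals of all 10 cone genes include 0, and Arr3 has the widest of them. That of Sag lies below 0 before adjustment for the number of genes tested.

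Genes that rods and cones share for the photoresponse and its recovery were given by a list of 11, all tested. Means were higher for 3 and lower for 8, with a median log2 fold change of -0.080, where 50.6% of all genes tested were lower. Of the 11, edgeR called 0 over all genes. At an unadjusted p under 0.05 there were 2, against 7.36% of all genes tested. Gnb5, the beta subunit of the RGS9 complex that switches transducin off, averaged 668 ± 74.6 CPM over vehicle and 523 ± 15.8 CPM over vigabatrin libraries. Guca1a, a calcium sensor of guanylate cyclase, had 717 ± 88.9 and 573 ± 16.8 CPM. Their log2 fold changes were -0.35 (standard error 0.070) and -0.33 (0.076), with adjusted p of 0.311 and 0.402 by edgeR. Guca1b measured -0.079 and Pdc, phosducin, -0.16 (standard errors 0.046 and 0.099). The CPM of the groups did not overlap for Gnb5, as for 1.48% of all genes tested, and overlapped for Guca1a, Guca1b and Pdc.

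Of 8 further genes enriched in cones, 7 were tested and Clca3a2 had 0 counts in all 10 libraries. Higher means were found for 4 and lower for 3, with a median log2 fold change of 0.025, and 0 were called by edgeR over all genes. At an unadjusted p under 0.05 there was 1, against 7.36% of all genes tested. Slc24a2, the cone sodium, potassium and calcium exchanger, averaged 62.6 ± 3.94 CPM over vehicle and 70.3 ± 5.04 CPM over vigabatrin libraries (log2 fold change 0.17, standard error 0.058, edgeR adjusted p = 0.583). All 5 vigabatrin libraries were at or above the vehicle median. Kcne2, a potassium channel subunit, measured 0.14 (standard error 0.076), Gulo 0.069 (0.119) and Fabp7 -0.22 (0.176). Fabp7 was scarce, at 0.79 ± 0.11 CPM over vehicle and 0.68 ± 0.14 CPM over vigabatrin libraries, with 27 counts in its lowest library. Without the lens-rich libraries the median of this list was -0.071.

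Transcription factors that act in cones or their precursors were described by a list of 8. Of these, 3 had higher and 5 lower means (median -0.032), and 0 were called by edgeR over all genes. At an unadjusted p under 0.05 there were 0 as well, against 7.36% of all genes tested. Thrb, the thyroid hormone receptor that directs M opsin expression, averaged 94.1 ± 7.60 CPM over vehicle and 88.8 ± 5.18 CPM over vigabatrin libraries. Crx, which activates photoreceptor genes, had 1135 ± 38.5 and 1098 ± 52.1 CPM, and Otx2, which acts before it, 228 ± 9.25 and 217 ± 14.0 CPM. Rorb, a nuclear receptor needed for photoreceptor development, measured 0.12 (standard error 0.062, edgeR adjusted p = 0.724).

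The genes whose pattern was most like the mean of the 10 cone genes were ranked among 14947 other genes, by Pearson's r over the 10 libraries after each group's mean was removed. The first 5 were Ralyl (r = 0.962, Spearman's correlation 0.952), Atp5sl (0.962, 0.915), Pitpnm2os2 (0.962, 0.939), Rcvrn (0.951, 0.927) and Mrgbp (0.951, 0.891). Rcvrn encodes recoverin, a calcium sensor of rods and cones, and it was the only one of the 5 on a list used here. Without vehicle 835 the 5 values of r were between 0.921 and 0.950. They are the highest of a long ranking over libraries that differ in depth and carried-over tissue, and are given as a description.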

How the data were processed

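The authors deposited 1 table of raw counts of reads, with a row per Ensembl gene and its length. Per the submitters' processing notes, HTSeq 0.6.1 and the build mm10 were used. DESeq2 and edgeR 3.16.5 are named there too. Which aligner and gene annotation served, and whether strand did, is not given in the sources used here. In the table, 1 column belongs to no sample analysed here and was left out. RNA was extracted with Qiazol, per the labels' protocols.

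After filterByExpr and TMM scaling, all genes were fitted in edgeR 4.0.16 (glmQLFit, glmQLFTest; limma 3.58.1, R 4.3.3) with treatment group as the sole term. Standard errors come from the fitted log2 fold change and the F statistic, and the 95% interval uses the fit's degrees of freedom. The median standard error over all genes was 0.088. Alternatives were DESeq2 1.42.0, limma-voom, other scalings and filters, terms for title number range and for lens and pigment epithelium, and leaving out libraries. Promoters are RefSeq's and exons GENCODE M21's. The TAATC search was added after seeing the data.

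The members and lists were chosen with earlier results of these data known. One rod gene of the lists is not reported here. Named are all members, up to 4 genes of smallest p per list and the 5 genes most like the members' mean, with predicted genes passed over.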

Additional observations from a re-analysis of the deposited data

Results flagged for a closer look

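Of 40 groups of 5 libraries examined (the 10 cone genes, the opsin ratio and the 9 cone to rod ratios in each treatment group), 0 had an extreme library set apart from the rest by Dixon's criterion. About 2.0 (1 in 20) would be so by chance.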

How the results depend on the processing

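In all 20 alternatives 0 of the 10 cone genes were called. The count over all genes was 85 with DESeq2, 3 with limma-voom, and 0 with library size only, without a filter, without the lens-rich libraries, with a term for title number range and with terms for lens and pigment epithelium. It lay between 0 and 39 when 1 library was left out, the 39 without vehicle 2345. With a term for title number range, the log2 fold changes of Opn1sw (0.049), Opn1mw (0.155), Gnat2 (0.044), Pde6h (0.124), Cnga3 (-0.037) and Cngb3 (-0.171) had the opposite sign, and the cause was not tested. So did Gngt2 (-0.016) and Cnga3 (-0.0094) with limma-voom, Gngt2 (-0.020), Pde6h (0.014) and Cnga3 (-0.023) without the lens-rich libraries, and Cnga3 (-0.013) and Cngb3 (-0.00084) with tissue terms. Leaving out 1 library at a time gave -0.097 to -0.0056 for Opn1sw, -0.136 to -0.014 for Opn1mw, -0.032 to 0.181 for Arr3, -0.058 to 0.000056 for Gnat2 and -0.094 to -0.018 for Gnb3. It gave -0.023 to 0.070 for Gngt2, 0.013 to 0.068 for Pde6c, -0.074 to 0.030 for Pde6h, -0.033 to 0.053 for Cnga3 and -0.0070 to 0.070 for Cngb3. The opsin ratio difference was -0.038 to 0.093 when 1 library was left out, -0.014 without the lens-rich libraries and -0.103 with vehicle 2345 as the sole vehicle library. The median log2 cone to rod ratio over the 9 pairs was -4.10, against -4.27 without division by length and -4.16 with principal transcript lengths. Each of the 10 genes had 627 counts or more in every library, the fewest being for Cnga3. No paired analysis was possible because the groups share no title number.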
